A study of Mus musculus with 59 samples.

Results

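The mouse genes named Zfp900 to Zfp999 were taken by symbol alone: every gene of the RNA tables whose Ensembl identifier mapped to Zfp followed by a number from 900 to 999 was included. This gave 64 genes of 39017 in the tables. The rule itself uses names only. A RefSeq span was found for 61 of them on GRCm38.p6 (mm10); Zfp969, Zfp986 and Zfp989 had none, so they have RNA values only.

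Mouse genes with Zfp names encode zinc finger proteins, and many of them carry a KRAB domain ahead of an array of fingers. The fingers read DNA, and the KRAB domain recruits Trim28 (KAP1), which brings in the histone methyltransferase Setdb1 and heterochromatin proteins. In embryonic stem cells this machinery is known for silencing retrotransposons. Zfp932 is a studied example that binds endogenous retroviruses. Many of the genes lie in clusters of near relatives made by repeated duplication, so a short read may fit more than 1 of them. How such reads were counted is not given, and values of close relatives are uncertain for that reason.

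The study's 59 libraries (35 of RNA, 24 of chromatin) came from embryonic stem cells of a 129xC57Bl6 hybrid background kept on gelatin with LIF. In 23 RNA libraries, DGCR8 Flox/Flox cells with Rosa26:CRE and Drosha Flox/Flox cells (no Cre is named in their labels) were given 0.5 µM 4-hydroxytamoxifen (4OHT), the drug used to switch on inducible Cre, for 24, 48 or 96 h, or were left untreated. Each group had 2 libraries, except 4OHT-treated Drosha cells at 96 h with 1. In 12 RNA libraries, cells with Rosa26:BirA and DGCR8 FLAG/Avi (parental 1 and 2), or the same background with METTL3KO (lines 1d1, 3xU, 1d2 and 2c4d), were kept at 37 °C or heated to 42 °C for 1 h. DGCR8 and Drosha together cut primary microRNAs, and METTL3 is the enzyme that adds N6-methyladenosine to RNA. Chromatin immunoprecipitation (ChIP) used streptavidin pulldown of FLAG/Avi-tagged DGCR8, Dicer, Drosha or METTL3 from Rosa26:BirA cells; 1 input came from Rosa26:BirA cells with no tagged protein. Nothing in the labels says that replicates were separate cultures, so p-values measure the spread between these libraries only. Bulk RNA cannot tell fewer cells expressing a gene from less of its RNA per cell.

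Library totals (in units of 1e6 counts) ran from 7.1 to 13.6 for RNA and from 13.8 to 86.3 for ChIP. Sample titles and source names disagreed for 22 samples, 12 of them floxed libraries whose treatment differed, in the treatment field as in the source name; titles were used. Under the titles, Drosha was at 23.4 to 29.1 CPM (counts scaled to a library total of 1e6) in the 5 libraries of treated Drosha cells and at 82.4 to 126 CPM in the 6 untreated ones. Dgcr8 was higher, not lower, in the libraries titled 4OHT of the DGCR8 line (223 to 289 CPM against 105 to 145), so whole-gene counts do not check that deletion. Dgcr8 was higher in treated Drosha cells too (280 to 382 CPM against 77.9 to 116). Mettl3 was at 20.5 to 40.7 CPM in the knockout lines and at 60.3 to 71.4 CPM in parental cells. All 9 stem cell markers listed for the check, among them Pou5f1, Nanog and Sox2, passed the expression filter in both RNA sets. At 96 h the mitochondrial ribosomal RNA mt-Rnr2 took 27.1% and 9.55% of counts in the 2 treated DGCR8 libraries and 21.3% in the treated Drosha library, against 8.3% to 17.2% in all other RNA libraries. The 96 h results below are therefore given by library.

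The 61 placed genes sat in 25 groups with no gap over 1 Mb, and 42 of them were in groups of 2 or more. Zfp941, Zfp949 and Zfp932 each sat in a group of 1. The biggest were 14 genes on chromosome 4 (chr4:145510759-147849126), 10 on chromosome 17 (chr17:21565816-22867309), 9 on chromosome 2 (chr2:175372034-178078425) and 4 on chromosome 7 (chr7:42579397-43192109). On chromosome 4 the span of Zfp981 overlapped that of Zfp993, and the span of Zfp978 overlapped those of Zfp991 and Zfp988. RefSeq gave a promoter for 54 of the genes, taken as the 250 bases before and 50 bases after the start. Of 6 short elements searched for on both strands in those 300 bases, the letters CCAAT, the core of the box bound by the factor NF-Y, were the most frequent here. They were present in 41 of 54 promoters (75.9%), in 114 of 253 promoters of other Zfp-numbered genes (45.1%) and in 10248 of all 27025 promoters (37.9%).

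The 250 bases before the start are shown for 5 genes (RefSeq, GRCm38.p6). Zfp941 and Zfp949 carry the heat results below, and Zfp932 is the studied family member. Zfp977 and Zfp936 are close relatives with METTL3 signal called above input. They lie in the same chromosome 7 cluster, with Zfp976 and Zfp975 between them. Capitals mark CCAAT on either strand (ATTGG when read on the other one), or the heat shock element letters GAANNTTC or TTCNNGAA, where N is any base.
Zfp941: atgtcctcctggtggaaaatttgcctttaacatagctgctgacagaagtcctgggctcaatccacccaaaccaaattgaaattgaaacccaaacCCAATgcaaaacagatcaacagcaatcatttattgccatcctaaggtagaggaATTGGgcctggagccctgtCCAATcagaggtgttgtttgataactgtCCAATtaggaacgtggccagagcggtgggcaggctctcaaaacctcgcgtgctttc
Zfp949: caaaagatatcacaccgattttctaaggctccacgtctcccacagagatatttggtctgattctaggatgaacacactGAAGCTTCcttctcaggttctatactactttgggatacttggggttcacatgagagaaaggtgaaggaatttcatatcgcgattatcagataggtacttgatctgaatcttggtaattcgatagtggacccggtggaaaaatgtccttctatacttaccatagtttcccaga
Zfp932: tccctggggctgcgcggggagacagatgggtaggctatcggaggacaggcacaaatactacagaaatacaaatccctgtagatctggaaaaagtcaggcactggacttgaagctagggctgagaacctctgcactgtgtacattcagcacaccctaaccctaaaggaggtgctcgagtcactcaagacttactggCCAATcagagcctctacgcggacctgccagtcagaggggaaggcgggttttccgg
Zfp977: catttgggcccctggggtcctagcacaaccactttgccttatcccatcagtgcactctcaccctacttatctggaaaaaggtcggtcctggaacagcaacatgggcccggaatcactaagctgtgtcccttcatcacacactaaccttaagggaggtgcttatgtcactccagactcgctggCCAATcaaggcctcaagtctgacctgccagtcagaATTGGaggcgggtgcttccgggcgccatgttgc
Zfp936: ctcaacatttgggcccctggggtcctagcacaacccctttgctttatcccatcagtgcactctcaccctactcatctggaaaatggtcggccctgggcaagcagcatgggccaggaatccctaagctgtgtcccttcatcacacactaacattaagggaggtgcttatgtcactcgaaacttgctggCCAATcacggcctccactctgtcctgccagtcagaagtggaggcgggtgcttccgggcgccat
The stretches are chr7:140822179-140822428 (minus strand) for Zfp941, chr9:88547770-88548019 (plus) for Zfp949, chr5:109996260-109996509 (plus) for Zfp932, chr7:42592546-42592795 (minus) for Zfp977 and chr7:43177340-43177589 (plus) for Zfp936, whose listed start lies inside its RefSeq span.

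Zfp941 held 4 CCAAT letters and no heat shock element, and Zfp949 held 1 heat shock element, GAAGCTTC, beginning 172 bases before the start, and no CCAAT. A match is a description of letters, not a binding site. The heat shock element letters were in 5 of 54 promoters (9.26%) and in 15.1% of all promoters. Zfp932, Zfp977 and Zfp936 each had CCAAT 55 to 68 bases before the start. The stretches of Zfp977 and Zfp936 were 88% identical. Among all 54 promoters, 7 pairs were over 90% identical, every one of them on chromosome 2; Zfp966 and Zfp967 had the same 250 bases.

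Levels per length were compared in parental cells at 37 °C as RPKM, which divides CPM by the gene width given in the deposited tables, in kilobases (mean of 2 libraries). They ran over orders of magnitude within 1 cluster. Zfp990 (63.8 RPKM) and Zfp979 (53.0 RPKM) on chromosome 4 were highest and lay at the 93.6th and 91.8th percentiles of the 13887 genes with at least 1 CPM. Zfp961 on chromosome 8 followed with 31.5 RPKM and Zfp985 with 29.9 RPKM. Zfp941 was at 6.12 RPKM, Zfp932 at 3.4 RPKM and Zfp949 at 3.33 RPKM. At the other end, Zfp987 on chromosome 4 was at 0.0665 RPKM, and 6 genes stayed under 5 counts in every RNA library: Zfp965, Zfp966, Zfp967, Zfp968, Zfp969 and Zfp973. Of these, 5 had no read in any of the 35 libraries and Zfp973 had at most 1. A total of 56 of the 64 genes passed the expression filter in the floxed set and 53 in the heat set.

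**Figure D1:**
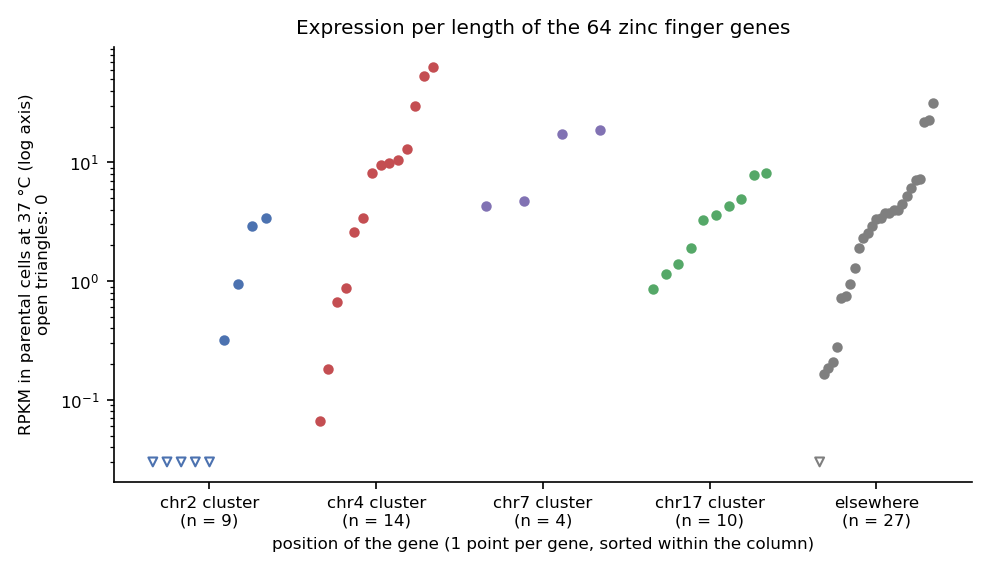
Expression per length (RPKM, log axis, mean of 2 parental libraries at 37 °C) of the 64 genes, 1 point per gene, by genomic position; open triangles stand for 0. The chromosome 4 cluster runs from 0.0665 RPKM (Zfp987) to 63.8 RPKM (Zfp990), and 5 of the 9 chromosome 2 genes are at 0.

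In the test that did not pair libraries by cell line, few of these genes were called with heat. Zfp941 was the one called lower in both genotypes. Zfp941 (chr7:140807453-140822201) was at 32.1 and 25.6 CPM in parental cells at 37 °C and at 6.92 and 6.6 CPM after 1 h at 42 °C. The knockout lines 1d1, 3xU, 1d2 and 2c4d went from 19.6, 20.8, 20.2 and 16.9 CPM to 7.27, 6.16, 5.14 and 5.70 CPM. Every heated library lay below every unheated one. In edgeR's quasi-likelihood test Zfp941 fell by 2.09 ± 0.25 (SE) on the log2 scale in parental cells (adjusted p = 0.0101), 4.26-fold, where 0.0192% of all 15635 genes tested were called (0.0128% higher, 0.0064% lower). In the knockout lines it fell by 1.67 ± 0.18 (adjusted p = 0.00178), 3.19-fold, where 0.185% were called. The effects in the 2 genotypes differed by 0.42 ± 0.30 (adjusted p = 1). No gene at all was called for that difference by edgeR (0.0%), and none of the 53 by DESeq2. An unadjusted edgeR p under 0.05 was found for 1 of the 53, Zfp949, and for 208 of all 15635 genes.

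The parental call for Zfp941 rested on few libraries. It was lost without parental library 1 at 37 °C (adjusted p = 0.192), without library 1 at 42 °C (0.247) or library 2 at 42 °C (0.262), and when the parental libraries were fitted alone (0.258), while the fold change stayed between 1.93 and 2.25 log2 units of decrease. With the cell line as a block, which pairs each line's heated and unheated libraries, the edgeR adjusted p was 0.000383.

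Zfp949 (chr9:88548020-88571086) moved the other way. It was at 8.21, 8.88, 10.8 and 10.2 CPM in lines 1d1, 3xU, 1d2 and 2c4d at 37 °C and at 19.5, 29.3, 28.7 and 26.9 CPM at 42 °C, with no overlap. It rose by 1.45 ± 0.19 log2 units in the knockout lines (edgeR adjusted p = 0.0059), 2.74-fold. Parental cells went from 13.8 CPM in both libraries to 20.0 and 25.0 CPM, also without overlap, but there Zfp949 did not pass the test (0.71 ± 0.26 log2 units, edgeR adjusted p = 1). The difference between genotypes was 0.74 ± 0.32 log2 units (edgeR adjusted p = 1). The unheated level was lower in the 4 knockout lines than in both parental libraries, and the heated levels overlapped.

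With the cell line as a block, the knockout lines gave 8 calls among these genes in place of 2, 5 higher and 3 lower, where 6.77% of all genes were called. The added genes were Zfp956 (0.85 ± 0.11 log2 units), Zfp952 (0.88 ± 0.12), Zfp970 (1.1 ± 0.22) and Zfp930 (0.55 ± 0.10), which rose, and Zfp953 (-0.71 ± 0.10) and Zfp978 (-0.49 ± 0.12), which fell. Zfp956 went from 11.3, 8.15, 8.74 and 10.9 CPM to 17.3, 14.1, 16.9 and 22.0 CPM, and from 6.46 and 8.53 to 11.1 and 12.8 CPM in parental cells. Zfp953 went from 17.5, 26.4, 31.1 and 21.7 CPM to 13.1, 16.2, 17.0 and 12.4 CPM, and from 35.5 and 32.5 to 22.4 and 20.5 CPM in parental cells. For both genes every line moved the same way, and each line's heated value lay on the same side of its own unheated value. Without the block neither passed the edgeR test (adjusted p = 0.213 for Zfp956 and 0.375 for Zfp953 in knockout lines, 1 for both in parental cells). Zfp978 overlaps Zfp991 and Zfp988, so its reads are uncertain. Zfp932 did not pass in either genotype (0.12 ± 0.27 and 0.11 ± 0.19 log2 units).

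**Figure D2:**
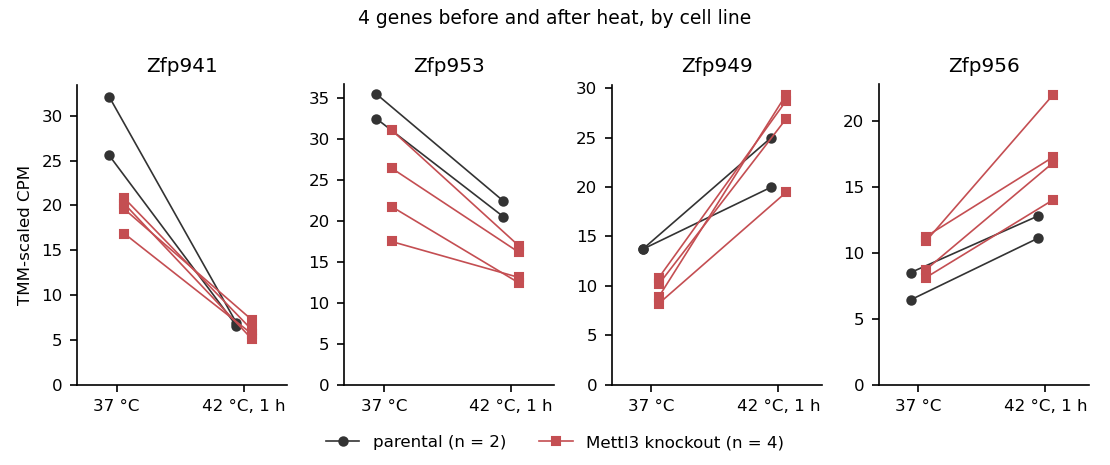
TMM-scaled CPM of 4 genes at 37 °C and after 1 h at 42 °C; each line joins the 2 libraries of 1 cell line (black circles parental, red squares Mettl3 knockout). Zfp941 and Zfp953 are lower and Zfp949 and Zfp956 higher at 42 °C in all 6 lines.

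By sign, 26 of the 53 genes were higher at 42 °C in parental cells and 36 of 53 in the knockout lines. The median change was -0.000943 log2 units in parental cells and 0.11 in knockout lines, against -0.00592 and -0.0182 over all genes tested. Of the listed co-repressor genes, which include Trim28 and Setdb1, 0 of 15 passed the edgeR test with heat in either genotype. Among 281 other Zfp-numbered genes tested, 0 passed in either genotype.

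Between Mettl3 knockout and parental cells none of the 53 genes was called by edgeR at 37 °C, where 0.902% of all genes were, or at 42 °C, where 0.64% were (0.333% higher). DESeq2 called none either, and 6 of the 53 had an unadjusted edgeR p under 0.05 at each temperature. Over all 15635 genes tested, 2500 at 37 °C and 2520 at 42 °C had such a p. By sign, 43 of 53 were lower in the knockout lines at 37 °C and 37 of 53 at 42 °C. The medians were -0.30 and -0.16 log2 units, against 0.00779 and -0.0017 over all genes. All 10 genes of the chromosome 17 cluster were lower by sign at both temperatures, with a median of -0.61 at 37 °C. The lowest by p at 37 °C was Zfp931, which was at 6.53 and 6.72 CPM in parental cells and at 2.53, 3.66, 3.46 and 2.18 CPM in the knockout lines (edgeR log2 fold change -1.16 ± 0.36, adjusted p = 0.138). The groups did not overlap for Zfp931. Next by p at 37 °C were Zfp941 (-0.58 ± 0.20, adjusted p = 0.187), Zfp938 (-0.65 ± 0.24, 0.199) and Zfp950 (-1.01 ± 0.39, 0.222). At 42 °C Zfp931 (-1.07 ± 0.35, 0.165) was again first, followed by Zfp950, Zfp992 and Zfp935 (-0.94 to -1.54).

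The lower sign was not shared by all 4 knockout lines. Against the parental mean at 37 °C (difference of log2 values of CPM plus 0.5), 44 of 53 genes were lower in line 1d1, 42 in 2c4d, 34 in 1d2 and 26 in 3xU. The medians were -0.52, -0.39, -0.28 and 0.019. The genes of the chromosome 17 cluster had medians of -0.86 in 1d1, -0.87 in 2c4d, -0.50 in 1d2 and 0.035 in 3xU. For the median, line 3xU sat at the parental level for these genes while the other lines lay below it. The same comparison over all genes gave medians between -0.029 and 0.021 in the 4 lines. At 37 °C Zfp988 differed most between the knockout lines. It was at 27.5 and 31.2 CPM in parental cells, at 39.9 and 40.6 CPM in 3xU and 1d2, and at 7.26 and 21.3 CPM in 1d1 and 2c4d. At 42 °C the range over the lines was widest for Zfp946 (1.82 log2 units, against 1.72 for Zfp988). The span of Zfp988 overlaps that of Zfp978, so its reads are uncertain. The 5 listed primitive endoderm markers summed to 34.6 to 36.2 CPM in parental cells and to 6.06 to 10.8 CPM in the knockout lines at 37 °C, and 3 of the 5 (Gata4, Gata6 and Pdgfra) were called lower at both temperatures. Of 9 stem cell markers 8 had a negative sign at each temperature and none was called; they summed to 4140 to 4740 CPM in parental cells and to 2620 to 4260 CPM in the knockout lines at 37 °C. The part of these markers in the differences was not tested.

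The 2 floxed lines differed in these genes before any treatment, about as often as in all genes. Of 56 genes tested, 19 were higher and 8 lower in untreated DGCR8 flox cells than in untreated Drosha flox cells (48.2%), and 48.7% of all 16606 genes tested were called (23.3% higher, 25.4% lower). The sizes were large for some. Zfp990 ran from 148 to 230 CPM (median 204) in the 6 untreated DGCR8 libraries and from 20.8 to 33.6 CPM (median 30.1) in the 6 Drosha libraries, a 6.96-fold difference (log2 2.80 ± 0.13, edgeR adjusted p = 1.5e-11). Zfp951 ran from 3.88 to 5.76 CPM against 0.41 to 0.869 CPM (2.90 ± 0.26 log2 units). Neither gene's ranges overlapped between the lines.

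Within the chromosome 4 cluster, neighbours went in opposite directions. Zfp990 at one end was higher in the DGCR8 line, its neighbour Zfp980 was not called, and the next genes along the chromosome, Zfp987 (-2.09 ± 0.50), Zfp992 (-1.21 ± 0.22), Zfp981 (-1.25 ± 0.16) and Zfp993 (-2.60 ± 0.42), were lower. Farther along, Zfp982 (1.34 ± 0.13), Zfp985 (1.48 ± 0.13) and Zfp984 (1.25 ± 0.12) were higher again. Zfp981 ran from 19.3 to 26.7 CPM in the DGCR8 line and from 46.6 to 63.2 CPM in the Drosha line. Zfp993 and Zfp987 had at most 22 counts in any library, and Zfp993 shares its span with Zfp981. On chromosome 7, 3 of 4 clustered genes were called higher in the DGCR8 line; in the chromosome 17 cluster there were 4 calls each way. Other calls were smaller: Zfp983, Zfp939, Zfp936, Zfp977, Zfp960, Zfp947 and Zfp931 were higher by 0.99 to 0.58 log2 units, and Zfp994, Zfp942, Zfp948 and Zfp943 lower by 0.67 to 0.36. Cell line and floxed gene cannot be told apart here, and the labels do not say whether a line is 1 clone.

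**Figure D3:**
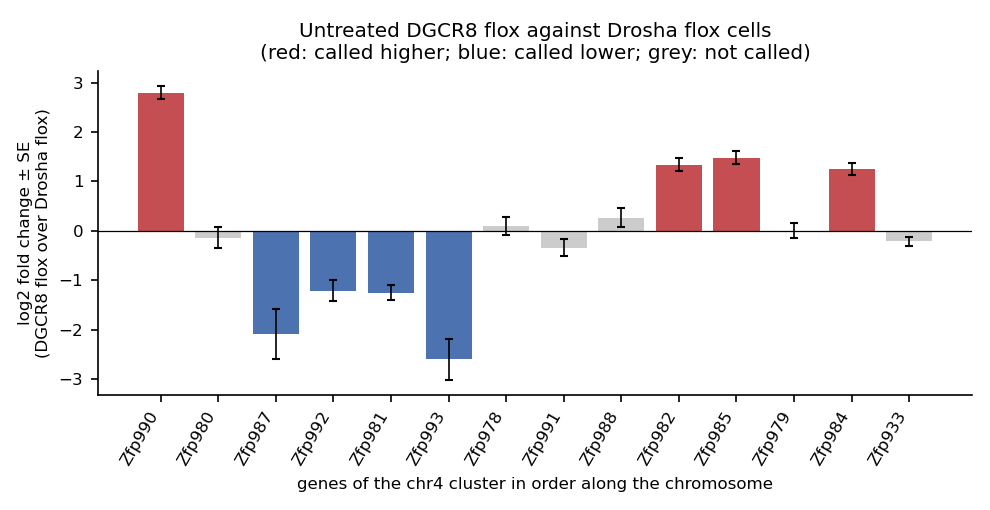
Log2 fold change with its standard error, untreated DGCR8 flox over untreated Drosha flox cells (6 libraries each), for the 14 chromosome 4 genes in order along the chromosome; red is called higher, blue called lower, grey not called. Among these 14 genes the 4 lower ones are next to each other, from -1.21 (Zfp992) to -2.60 (Zfp993), with genes called higher farther out on both sides.

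With 4OHT, on the mean of both lines, Zfp941 was again the one called lower. At 24 h none of the 56 genes was called by edgeR on the mean of both lines (0.44% of all genes were) or DESeq2. Of all 16606 genes tested, 1707 had an unadjusted edgeR p under 0.05. Of the 56, 2 did: Zfp954 (-0.30 ± 0.12 log2 units) and Zfp941 (-0.18 ± 0.08). At 48 h Zfp941 alone was called, where 8.18% of all genes were (5.56% higher, 2.61% lower). In the DGCR8 line it was at 25.2 and 26.6 CPM untreated and at 18.9 and 17.0 CPM with 4OHT, and in the Drosha line at 25.7 and 25.6 against 23.8 and 22.3 CPM. The mean effect was -0.34 ± 0.08 log2 units (edgeR adjusted p = 0.0141), and the treated libraries lay below the untreated ones in both lines. By line it was -0.525 ± 0.117 in DGCR8 cells and -0.154 ± 0.114 in Drosha cells. This call was lost without DGCR8 4OHT library 2 (adjusted p = 0.0748), Drosha control library 1 (0.0524) or Drosha 4OHT library 2 (0.0539), and with no filter on low counts (0.135).

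At 96 h Zfp941 was at 29.0 and 29.1 CPM in untreated DGCR8 cells against 19.5 and 19.8 CPM with 4OHT, and at 24.9 and 25.2 CPM in untreated Drosha cells against 18.9 CPM. It fell by 0.49 ± 0.09 on the log2 scale (edgeR adjusted p = 0.000832). All 3 treated libraries lay below their controls, the 2 with a high mt-Rnr2 share and the 1 without. DGCR8 4OHT library 2 alone gave -0.53 ± 0.14, and the Drosha line alone, with 1 treated library, gave -0.41 ± 0.14. In both, the lone library is assumed to vary like the other groups. At 24 h the sign differed between lines: DGCR8 cells had -0.46 ± 0.11 and Drosha cells 0.10 ± 0.11 log2 units, and that difference was not tested.

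The other 96 h calls were all higher. The median over the genes tested was above 0 only in the 2 treated libraries with a high mt-Rnr2 share. On the mean of both lines 21 of 56 genes rose and 1, Zfp941, fell (37.5% and 1.79%), where 15.1% of all genes rose and 13% fell (28.2% in all); the median was 0.48 log2 units against -0.00867 over all genes. Zfp981 rose by 1.17 ± 0.20, Zfp947 by 1.13 ± 0.23, Zfp951 by 1.09 ± 0.34 and Zfp977 by 1.01 ± 0.19 (edgeR adjusted p from 0.000344 to 0.0244). Zfp951 had few counts in the Drosha line, 5 and 10 untreated and 21 with 4OHT. Next in size were Zfp975 (0.97), Zfp936 (0.93), Zfp978 (0.92), Zfp931 (0.84), Zfp980 (0.79), Zfp934, Zfp988 and Zfp953 (0.72). By library, 50 of 56 genes were above the control mean in DGCR8 4OHT library 1 (median 0.60, mt-Rnr2 27.1%) and 52 in the Drosha library (median 0.70, mt-Rnr2 21.3%), but 20 in DGCR8 4OHT library 2 (median -0.19, mt-Rnr2 9.55%). Of the genes named above as rising, Zfp951 (-0.0344), Zfp931 (-0.335) and Zfp988 (-0.541) lay below the control mean in DGCR8 4OHT library 2. The others named lay above it, by 0.023 (Zfp953) to 0.477 (Zfp975). Cell type markers differed too. The 2-cell-like genes summed to 5.24 to 10.8 CPM in treated and 1.26 to 1.59 CPM in untreated DGCR8 cells, and to 3.77 against 1.15 to 1.48 CPM in Drosha cells; 3 of 3 tested had a positive sign and 1, Zscan4d, rose. Of 5 primitive endoderm markers, 5 had a positive sign and Pdgfra rose; they summed to 41.7 to 46.7 against 44.2 to 46.2 CPM in DGCR8 cells and to 101 against 58.6 to 59.4 CPM in Drosha cells. Of 9 stem cell markers 7 had a negative sign, Pou5f1, Tdgf1 and Utf1 fell and Nanog rose. All 4 feeder fibroblast markers tested had a positive sign and none was called; they summed to 4.28 to 7.09 against 4.95 to 5.15 CPM and to 15.8 against 14.4 to 24.2 CPM. The part of the mt-Rnr2 share and of these markers in the result was not tested.

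Without DGCR8 4OHT library 1, 11 of the 56 were called on the mean of both lines (26.3% of all genes), and without library 2, 39 were (35.1% of all genes). Without DGCR8 control library 2 the count was 12 (21.3% of all genes), and without Drosha control library 1 it was 13 (23.8%). With a DGCR8 4OHT library left out, each treated arm holds 1 library, and its spread is taken from the other groups. When the DGCR8 line was tested alone with library 2 as its treated library, again with the spread of the other groups, 1 gene rose and 7 fell, where 12.4% of all genes rose and 7.77% fell. Zfp933 rose (0.53 ± 0.18), and Zfp992, Zfp958, Zfp932, Zfp948, Zfp979, Zfp941 and Zfp984 fell, by 1.39 to 0.48 log2 units. Zfp977 was above both controls of its line in every treated library, with the smallest difference in DGCR8 4OHT library 2. It was at 37.3 and 30.6 CPM in untreated DGCR8 cells, at 88.5 and 42.4 CPM with 4OHT, at 22.1 and 23.5 CPM in untreated Drosha cells and at 48.6 CPM with 4OHT. Zfp932 was at 16.7 and 13.3 CPM untreated and at 20.3 and 8.78 CPM treated in the DGCR8 line, so its 2 treated libraries lay on opposite sides of the controls. For the difference between the 2 lines' effects, edgeR and DESeq2 called 0 of the 56 genes (edgeR called 0.181% of all genes, 0.0662% lower). Of all 16606 genes tested, 2078 had an unadjusted edgeR p under 0.05, and of the 56, 5 did. Without DGCR8 4OHT library 1, 17 were called lower in the DGCR8 line and none higher, where 4.6% of all genes were called lower and 6.7% higher.

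**Figure D4:**
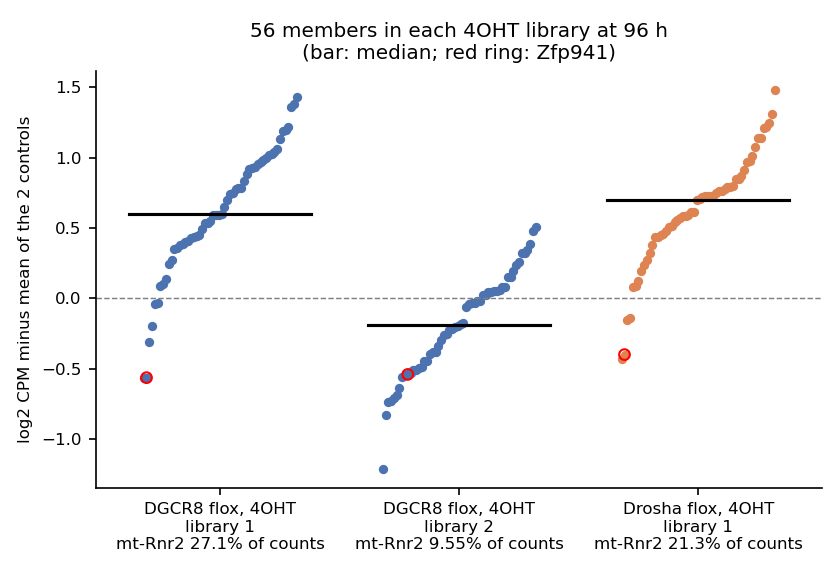
Difference of log2(CPM + 0.5) from the mean of the 2 untreated libraries of the same line for 56 genes in each 4OHT library at 96 h, 1 point per gene, sorted; bars are medians and the red ring is Zfp941. The 2 libraries with 27.1% and 21.3% mt-Rnr2 have medians of 0.60 and 0.70, the library with 9.55% has -0.19, and Zfp941 is below 0 in all 3.

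Genes of the co-repressor pathway went both ways at 96 h. Of 15 co-repressor genes 4 rose and 3 fell, with a median of 0.007 log2 units; Atf7ip (0.41 ± 0.12, edgeR adjusted p = 0.0185) and Morc3 (0.36 ± 0.09, 0.00777) were among those that rose, and Trim28 (-0.38 ± 0.11, 0.0156) and Uhrf1 (-0.39 ± 0.08, 0.00234) among those that fell. Of 18 other studied KRAB zinc finger genes, 6 rose and none fell (median 0.19). Of 289 other Zfp-numbered genes, 67 rose and 38 fell (median 0.12). These counts rest on the same libraries.

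METTL3 ChIP signal was above input over more of these genes than over genes at large. Counts of 5 kb windows overlapping each gene were summed, and 4 METTL3 precipitates of 2 clones were tested against their 2 inputs. Of 56 genes tested, 36 were higher in the precipitates and 0 lower (64.3%), where 20.1% of all 29616 genes tested were higher and 27.9% lower; 52 of the 56 had a positive sign. The median was 0.44 log2 units against 0.037 over all genes. Within expression classes set in parental cells (the 13887 expressed genes split in 4 at 5.33, 18.9 and 58.0 CPM), genes under 1 CPM had 3 of 5 higher (16.6% of all genes in that class), the lowest expressed class 2 of 10 (15.4%), the next 14 of 22 (17.4%), the next 13 of 14 (24.2%) and the highest 4 of 5 (40.3%). In the 4 expressed classes these genes had medians of 0.31, 0.42, 0.56 and 0.48, and all genes had -0.17, -0.15, -0.0019 and 0.16.

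**Figure D5:**
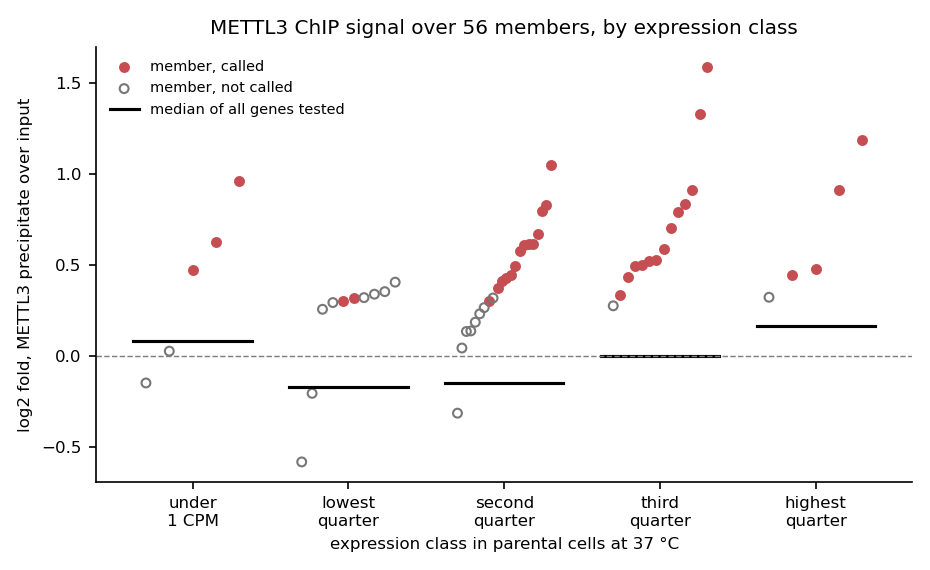
Log2 fold of METTL3 precipitates over inputs for 56 genes, by expression class in parental cells; filled red points are called by edgeR, open points are not, and black bars are medians over all genes tested in the class. Zfp977 (1.59) is highest, Zfp991 (-0.58) is lowest, and 13 of 14 genes between 18.9 and 58.0 CPM are called.

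Zfp977 had the highest ratio. Its windows gave 14.3, 12.4, 17.0 and 12.2 CPM in the 4 precipitates and 4.68 and 4.61 CPM in the inputs, with a log2 fold of 1.59 ± 0.16 (edgeR adjusted p = 9.69e-08). Zfp988 followed with 1.33 ± 0.23, and Zfp985 was at 29.1, 28.7, 36.5 and 25.6 CPM against 11.3 and 15.4 CPM (1.19 ± 0.14). For Zfp977 and Zfp985 every precipitate lay above both inputs. Zfp941 was at 14.0, 15.0, 16.2 and 14.2 CPM against 10.3 and 10.8 CPM (0.50 ± 0.11, adjusted p = 0.00127), and Zfp932 at 5.06, 4.81, 6.35 and 5.08 CPM against 3.67 and 3.22 CPM (0.62 ± 0.18, 0.00693). Both were called, with no overlap. At the low end were Zfp991 (-0.58 ± 0.24, adjusted p = 0.056), Zfp971 (-0.31 ± 0.20, 0.208) and Zfp992 (-0.21 ± 0.09, 0.0757), which did not pass the test. With the clone as a block, which pairs each clone's precipitates with its input, 36 genes were higher and 1 lower: Zfp991 (-0.59 ± 0.23, edgeR adjusted p = 0.0394). In that fit 48.2% of all 29616 genes tested were called, higher or lower. By cluster, 4 of 4 genes on chromosome 7 were higher, 11 of 14 on chromosome 4, 4 of 10 in the chromosome 17 cluster and 1 of 4 on chromosome 2. Leaving out 1 library gave 25 (the clone 1 input) to 38 calls. The share of all genes called is not given for those fits. For scale, in the main fit 8 of 15 co-repressor genes were higher and 4 lower, and 105 of 306 other Zfp-numbered genes were higher and 66 lower.

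The heat ChIP set held another 2 METTL3 precipitates (H4 and H5) at 37 °C with their inputs. There both precipitates exceeded both inputs for 47 of 56 genes (83.9%) and for 35.7% of all 29972 genes, with medians of 1.02 and -0.013 log2 units. Of the 36 genes called in the clone set, 35 were among the 47. Window counts in this set were odd in 29.8% to 45.1% of windows, against 45.4% to 47.0% in the other sets, so part of its reads may have been counted in pairs and its counting errors may be understated.

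After 1 h at 42 °C none of the 56 genes was called in METTL3 precipitates by edgeR (0.0734% of all genes were, 0.0267% higher and 0.0467% lower). An unadjusted edgeR p under 0.05 was found for 7 of the 56 and for 2823 of all 29972 genes. The median was -0.19 log2 units against 0.00183 over all genes. Zfp941 windows went from 24.6 and 29.4 CPM in the H4 and H5 precipitates at 37 °C to 12.6 and 12.3 CPM at 42 °C, where the 37 °C inputs were at 11.2 and 12.4 CPM. The heated precipitates thus lay at the level of the 37 °C inputs, and no METTL3 input at 42 °C is among the libraries. A link between this change and the fall of Zfp941 RNA was not tested. The log2 change was -1.12 ± 0.18 (adjusted p = 0.106). With the clone as a block, 3 genes were called lower, where 1.33% of all 29972 genes were called: Zfp941 (-1.11 ± 0.18, edgeR adjusted p = 0.0309), Zfp958 (-1.15 ± 0.17, 0.0258) and Zfp977 (-1.16 ± 0.19, 0.0324). The RNA of Zfp958 and Zfp977 did not pass the test with heat. Zfp949, whose RNA rose, was at 15.6 and 16.6 CPM before and 17.2 and 18.8 CPM after heat, against 15.0 and 12.9 CPM in the 37 °C inputs. The sign was also negative for 15 of 15 co-repressor genes (median -0.41) and for 260 of 306 other Zfp-numbered genes (median -0.35), none of them called by edgeR. The listed stem cell markers were negative in 9 of 9 cases, with a median of -1.12. None of those markers was called by edgeR, here or in RNA with heat.

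DGCR8, Drosha and Dicer ChIP had 1 library per condition, so they have no test. The summed windows of the 56 genes were compared as log2 ratios of CPM, with 95% Wilson intervals that cover counting error only. Genes whose spans overlap share windows, so some reads count for more than 1 gene and the intervals of the sums are too narrow. The ratio was 0.51 (0.48 to 0.53) for DGCR8 (DSG crosslinked) over its input, 0.54 (0.51 to 0.57) for Drosha and -0.0084 (-0.035 to 0.018) for Dicer, both over the parental input, which those 2 share. By gene, 47, 46 and 29 of 56 ratios were above 0 (83.9%, 82.1% and 51.8%), against 50.3%, 42.5% and 42.9% of all genes. DGCR8 and Drosha ratios thus lay above 0 for most of these genes, and Dicer ratios were split about evenly. The medians of the 56 were 0.61, 0.457 and 0.00478. Over all genes, from the lowest to the highest expressed class, the DGCR8 medians were -0.24, -0.16, 0.0425 and 0.41. Those of Drosha were -0.336, -0.293, -0.123 and 0.178, and those of Dicer -0.0485, -0.0581, -0.0554 and -0.0978. Zfp985 had 1.21 (1.05 to 1.38) for DGCR8, 1.42 (1.23 to 1.62) for Drosha and -0.015 (-0.20 to 0.17) for Dicer.

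In a separate experiment DGCR8 in wild type cells had a summed ratio of 0.25 (0.22 to 0.28) over input, and in the Mettl3 knockout it differed from wild type by -0.025 (-0.053 to 0.0039), with a median of -0.072 over 55 genes and -0.017 over all genes. For that difference, all genes of the expressed classes, from lowest to highest, had medians of -0.00477, -0.0184, -0.0322 and -0.0667. In the heat set DGCR8 at 37 °C had 0.95 (0.93 to 0.98) over input and 51 of 56 genes above 0 (47.2% of all genes). The 42 °C over 37 °C ratio was above 0 for 6 of 56 genes (46.4% of all genes), with a summed value of -0.47 (-0.49 to -0.44). The median was -0.47 over the 56 and -0.066 over all genes, but -0.34, -0.49 and -0.77 over all genes of the 3 higher expression classes, in which most of the 56 lie. Zfp941 had -1.13 (-1.31 to -0.97), Zfp977 -0.85 (-1.05 to -0.66) and Zfp949 -0.26 (-0.43 to -0.096), so the ratio of Zfp941 was lower than that of Zfp949. Lower ratios still were found for Zfp931 (-1.51), Zfp979 (-1.30), Zfp972 (-1.28), Zfp958 (-1.26), Zfp971 (-1.22) and Zfp945 (-1.18); none of these was called in RNA with heat, and Zfp972 was too low in RNA to be tested.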

How the data were processed

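RNA tables hold counts of exon reads per gene, and ChIP tables hold counts of reads per 5 kb window, as deposited by the authors; reads were aligned to mm10 per the submitters' processing notes, and the counting tool, strand and treatment of multiply mapped reads are not stated in any source used. The values are whole numbers and were used as raw counts. Per the labels' protocols, ribosomal RNA was removed before library preparation. Symbols, spans and promoters came from the reference tables (RefSeq GRCm38.p6). 1 ChIP column, whose name matched several DGCR8 samples, was left out, so DGCR8 after formaldehyde crosslinking is not analysed here.

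Counts were tested with edgeR 4.0.16 in R 4.3.3: TMM scaling, filterByExpr and the quasi-likelihood F test with a coefficient for each group; p-values were adjusted across every tested gene (Benjamini-Hochberg, threshold 0.05). Floxed and heat libraries were fitted as separate sets; the filter on ChIP gene sums was a mean of 10 counts. For ChIP with 1 library per condition, a gene was kept from 50 counts upward, summed over both libraries, and a pseudocount of 1 was added. CPM values are TMM-scaled. The scripts were tested on simulated data. DESeq2 1.42.0, other filters, size factors, only the compared groups, a replicate block and leaving out each library were the alternatives.

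The genes named are all those called (the 12 largest changes with at least 1 CPM where more than 12 were called in 1 direction), the 4 smallest p where fewer than 4 were called, the 3 highest and 3 lowest METTL3 ratios, and Zfp932 and Zfp941; genes named for other reasons (expression level, differences between knockout lines, cluster neighbours, calls of the blocked or single-library fits) were chosen after their values were seen. The members and lists were chosen with earlier results of these data known. Cell lines pair the heat libraries: each line's 2 libraries deviated together from their group means (r from 0.476 to 0.742), and METTL3 clones pair by label. Replicates of each RNA group differed by more than sampling noise (chi-square per degree of freedom at least 4.48 in 25 pairs).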

Additional observations from a re-analysis of the deposited data

How the results depend on the processing

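Of the genes named, 1209 values under an alternative kept their direction and side of the threshold, 81 lost and 22 gained a call, and 3 changed sign. The 3 were 96 h values with DGCR8 4OHT library 2 alone: Zfp951 (-0.025), Zfp931 (-0.37) and Zfp988 (-0.54); the cause was not tested. The 96 h count of 22 became 7 with only the compared groups, 7 in the DGCR8 line alone, 9 in the Drosha line alone and 8 (1 higher) with library 2 alone; leaving out 1 library gave 11 to 39. The line difference at 96 h had 2 calls with no filter and 0 to 17 when 1 library was left out. At 48 h the count of 1 became 0 with no filter and with the replicate block, and 0 to 1 without 1 library. The heat count in parental cells became 0 with only the compared groups and 0 to 1 without 1 library. With the replicate block the heat count in knockout lines became 8 and that of METTL3 after heat 3. For the 96 h counts with only the compared groups or 1 line alone, the share of all genes called is not given. Whether those counts exceed the share over all genes therefore cannot be judged here.

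Only windows inside the gene moved the 1-library ChIP ratios to 0.57 (DGCR8 after DSG), 0.31 (DGCR8 in wild type), 0.98 (DGCR8 at 37 °C) and -0.40 (DGCR8 at 42 °C over 37 °C). In the floxed lines replicate numbers did not pair libraries (r from -0.324 to 0.226), so the block there shares only a number. The other counts stayed within 1.5 times. Depth limits the genes under 1 CPM and those 6 under 5 counts.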

Other observations

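The letters CCAATCAG, noticed in the printed promoters and so chosen after the sequences were seen, were in 20 of 54 promoters of these genes (37%), in 27 of 253 of other Zfp-numbered genes (10.7%) and in 4.31% of all 27025 promoters, on either strand of 300 bases. Clustered genes share sequence by descent, so the 54 promoters are not independent.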
